A study of Mus musculus with 9 samples.

Results

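Selenok, Selenos, Selenon, Selenom, Selenof, Selenot and Selenoi encode 7 selenoproteins of the endoplasmic reticulum (ER), and their transcripts were followed in mouse liver. The genes were taken by name. All 7 were found among the 25781 genes of the deposited table, and 16 other selenoprotein genes were found beside them. The deiodinase gene Dio2, whose product also lies in the ER, was looked for with these but not found in the table, so it was not analysed. RNA sequencing was done on livers of Swiss mice, an outbred stock, aged 10 to 12 weeks, in 3 groups of 3 libraries. The first group received the compound the labels call β-CYP at 40 mg/kg plus 50 µg/kg of sodium selenite (Na2SeO3), and is called the selenite group. The second received β-CYP alone at 40 mg/kg, and the third was the control group, for which the labels name no compound. The series' title places the study under selenium against liver injury. The series' text describes β-CYP as the injuring treatment and its combination with selenite as the repair group, so the selenite group differs from the β-CYP group by selenite and from the control group by both compounds. The abbreviation β-CYP is used as the labels have it. Nothing in the labels ties the 3 libraries of a group to separate animals, and the p-values below therefore speak of the spread between libraries, part or all of which may be technical.

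Selenoproteins carry selenocysteine, an amino acid inserted at an in-frame TGA (UGA in the mRNA) that would otherwise end translation. Insertion needs a stem-loop in the 3′ untranslated region, the SECIS element, with its binding protein SECISBP2 and the elongation factor EEFSEC. Transcripts of many selenoproteins are known to depend on selenium supply, since a TGA that is not decoded can send the mRNA to nonsense-mediated decay. The ER set works on protein quality control, calcium and lipids. SELENOK and SELENOS are small single-pass membrane proteins that bind the Derlins and the p97 ATPase (gene Vcp) in ER-associated degradation, the removal of misfolded proteins, and both genes are known to respond to ER stress. SELENOF binds UGGT, the glucosyltransferase that checks the folding of glycoproteins. SELENOM and SELENOT have a thioredoxin-like fold. SELENON acts on ER calcium, and its loss causes a muscle disease in humans. SELENOI is an ethanolamine phosphotransferase that makes phosphatidylethanolamine.

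The place of the selenocysteine codon divides the 7 genes, and the 33 bases around it are shown for that reason. Sequences are of the C57BL/6J reference, from GENCODE M21 transcripts (build GRCm38), and were not read from these Swiss mice. Capitals mark the selenocysteine codon TGA and, where one lies within 8 codons upstream, the nearest cysteine codon (TGC or TGT).
Selenok: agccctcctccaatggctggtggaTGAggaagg
Selenos: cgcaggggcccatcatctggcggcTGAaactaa
Selenoi: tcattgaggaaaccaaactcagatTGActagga
Selenon: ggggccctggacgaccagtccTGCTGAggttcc
Selenom: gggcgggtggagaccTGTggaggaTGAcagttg
Selenof: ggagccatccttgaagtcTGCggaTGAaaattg
Selenot: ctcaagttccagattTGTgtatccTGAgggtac
In Selenok the TGA is codon 92 of 94, in Selenos codon 189 of 190 and in Selenoi codon 388 of 398, so 2, 1 and 10 codons follow it, and no cysteine codon lies in the 8 before it. In the other 4 genes the TGA lies further inside the reading frame. It is codon 428 of 557 in Selenon, 48 of 145 in Selenom, 93 of 162 in Selenof and 49 of 195 in Selenot. A cysteine codon stands directly before it in Selenon, 2 codons before it in Selenof and 3 codons before it in Selenom and Selenot. The spacing in Selenom and Selenot is that of the redox motif of thioredoxin-like proteins, with selenocysteine in place of the second cysteine.

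Libraries held 32084480 to 33056400 reads in the selenite group, 32052250 to 36029560 in the β-CYP group and 28630269 to 35821336 in the control group. Values are scaled counts, the reads of a gene divided by a factor of its library, as the authors deposited them on a log2 scale. Transcripts of 7 hepatocyte markers made up 9.0% to 9.13% of reads in selenite libraries, 10.3% to 10.5% in β-CYP libraries and 8.42% to 9.34% in control libraries. Transcripts of other tissues also differed between groups. Across 20 pancreatic acinar markers, the summed reads were 43840 to 45390 in selenite, 1165 to 1282 in β-CYP and 977 to 1084 in control libraries. Of these markers 11 were at 0 in all β-CYP libraries and 14 in all control libraries, Prss1, Prss2, Cpa1 and Pnlip among them. Control replicate 2 stood apart through 1805976 reads of AY036118, an rRNA-like transcript, against 42232 and 43988 in the other controls. These reads count in that library's total of 35821336, and so enter its marker shares and the scaling to equal totals used below. How far they moved either was not tested. Kupffer cell and macrophage markers (12 genes) summed to 21304 to 22025 reads in selenite, 16071 to 18235 in β-CYP and 14503 to 15861 in control libraries, and 7 cholangiocyte markers to 2521 to 2597, 6673 to 7724 and 2345 to 2881 in the same order of groups. No marker of either list was at 0 in a whole group. Of the 7 cholangiocyte markers, 1 rose and 0 fell in β-CYP relative to control livers. In selenite relative to β-CYP livers 0 rose and 1 fell, so most genes of that list did not pass. Of the 12 Kupffer cell and macrophage markers, 3 rose and 3 fell in β-CYP relative to control livers. In selenite livers 7 rose and 0 fell relative to β-CYP. Neutrophil markers (12 genes) summed to 917 to 1034 reads in selenite, 564 to 648 in β-CYP and 160 to 189 in control libraries, with Ly6g at 0 in all controls. Of the 11 neutrophil markers tested, 6 rose and 0 fell in β-CYP relative to control livers. Relative to β-CYP, 1 rose and 0 fell in selenite livers, so most genes of that list did not pass there. Spermatid markers (8 genes) summed to 0 to 5 reads in selenite, 3 to 8 in β-CYP and 287 to 350 in control libraries, and all 8 fell in both comparisons with control. Of these, Prm1 and Prm2 were at 0 in all selenite libraries and Tnp1 was at 0 in all selenite and β-CYP libraries. Plasma cell markers (6 genes) summed to 1219 to 1290 reads in selenite, 1206 to 1411 in β-CYP and 577 to 657 in control libraries. Erythroid markers (7 genes) summed to 22978 to 23552, 23877 to 27931 and 25406 to 29066 in the same order of groups. In β-CYP relative to control livers, 4 of the 6 plasma cell markers rose and 0 fell. Of the 7 erythroid markers 0 rose and 4 fell there. The part of these marker lists in the members' changes, the fall of Selenos against control included, was not tested. These are bulk samples, so fewer cells of a type and less RNA per cell cannot be told apart.

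The 7 transcripts differed widely in level. Scaled counts per kilobase of the transcript that holds the selenocysteine codon were used to order them. Selenof was highest, at 2593 ± 115 in selenite, 3014 ± 47.5 in β-CYP and 2986 ± 101 in control livers (mean ± SD, n = 3 libraries, here and below). Selenot averaged 1381 ± 50.8 in selenite, 1439 ± 34.5 in β-CYP and 1377 ± 43.4 in control livers. Selenos averaged 1519 ± 110 in selenite, 1161 ± 34.8 in β-CYP and 1348 ± 26.8 in control livers. In the selenite and control groups the ranges of Selenot and Selenos overlapped, whereas in the β-CYP group Selenot lay above Selenos in every library. Selenok followed at 1001 ± 71.0 in selenite, 697.2 ± 10.0 in β-CYP and 723.6 ± 32.9 in control livers. Selenoi came next at 150.3 ± 14.6 in selenite, 88.96 ± 41.3 in β-CYP and 177.6 ± 38.5 in control livers. The lowest were Selenon and Selenom. Selenon had 48.81 ± 4.70 in selenite, 25.41 ± 4.07 in β-CYP and 20.05 ± 2.62 in control livers, and Selenom had 43.28 ± 11.5, 59.17 ± 7.06 and 40.11 ± 1.35 in the same order of groups. Their ranges overlapped in the selenite group, and Selenom was above Selenon in all β-CYP and control libraries. The order depends on the transcript model for Selenof and Selenom. With the length of all its annotated exons, 5819 bases in place of 1514, Selenof in control livers averaged 777.0 per kilobase, below Selenot at 1265 and Selenos at 1087, and in selenite livers 674.6, also below Selenok at 888.5. With 1481 bases in place of 707, Selenom averaged 20.66 in selenite, 28.25 in β-CYP and 19.15 in control livers, against 46.46, 24.19 and 19.09 for Selenon in the same order of groups.

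**Figure D1:**
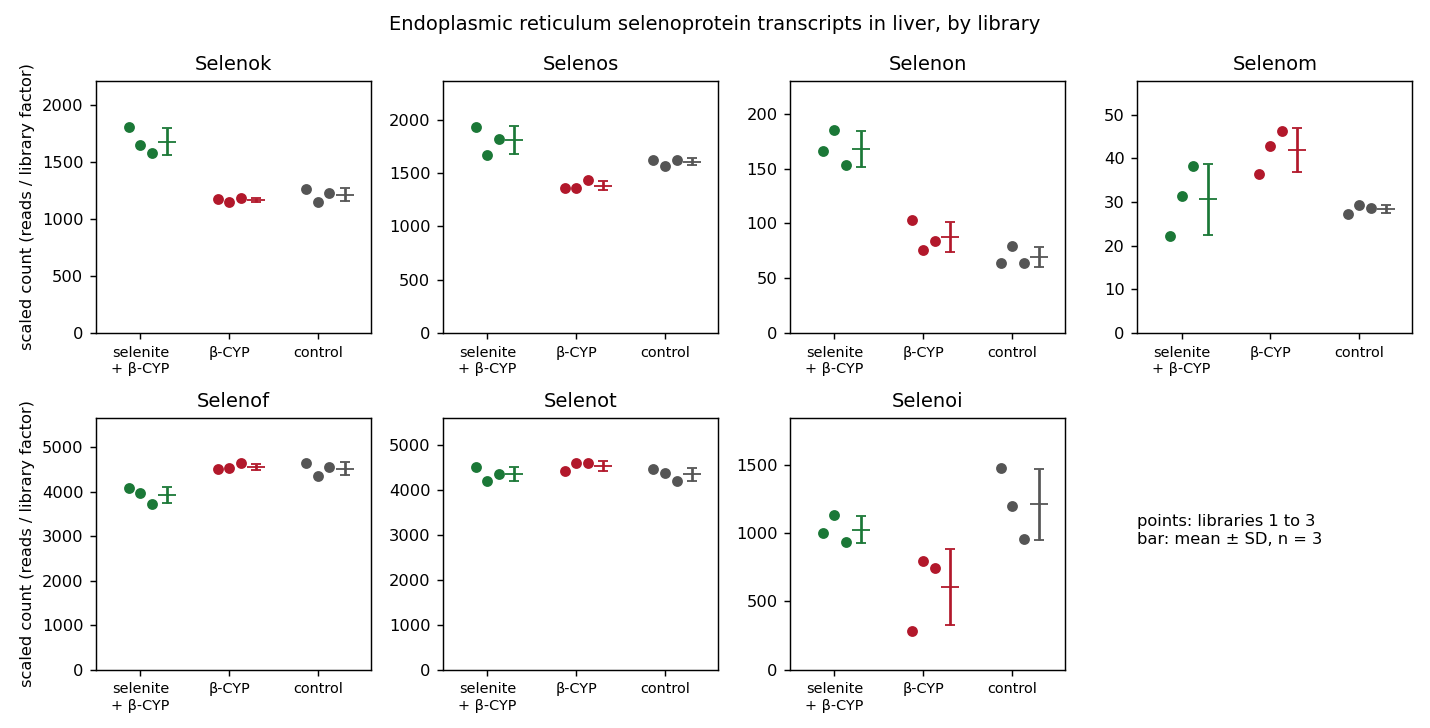
Scaled counts (y axis, linear from 0, one scale per gene) of the 7 ER selenoprotein transcripts in selenite + β-CYP, β-CYP and control livers (x axis); points are the 3 libraries of a group and the bar is their mean ± SD. Selenok, Selenos and Selenon lie above both other groups in all selenite libraries, Selenof lies below both, and Selenoi spreads from 281.9 to 792.3 in the β-CYP group.

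Against β-CYP alone, selenite livers had more transcript of both ER-associated degradation selenoproteins and of Selenon, and less of Selenof. In this comparison 3 of the 7 members rose and 1 fell, with a median log2 change of 0.38, beside a median of 0.02 over all 20145 genes tested. Of all genes tested, 23.9% were called, 11.6% higher and 12.3% lower. Against control, the selenite livers again had 3 members higher and 1 lower, with a median log2 change of 0.07, beside 0.03 over all genes. The calls there covered 28.9% of genes tested, 14.4% higher and 14.5% lower. Between β-CYP and control livers 0 members rose and 1 fell, Selenos, with a median of 0.01, beside 0.00 over all genes. In that comparison 16.3% of genes were called, 7.72% higher and 8.58% lower, so the members' share was close to that of all genes. All 7 members passed the filter on low values. Each group enters 2 of the 3 comparisons, so these share libraries and are not independent of each other.

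Selenok, the palmitoylation cofactor and Derlin partner, had 1811, 1651 and 1578 scaled counts in selenite livers, against 1173, 1152 and 1185 in β-CYP livers and 1262, 1154 and 1227 in control livers. All 3 selenite libraries were above all 6 others, and β-CYP and control libraries overlapped. The rise in selenite over β-CYP was 0.52 on the log2 scale (SE 0.059, 95% interval 0.39 to 0.65), a fold of 1.43, with an adjusted p of 1.4e-04 in limma's test across all genes. Selenite over control gave a log2 change of 0.47 (interval 0.34 to 0.60, adjusted p = 2.3e-04). Between β-CYP and control the change was -0.05 (interval -0.18 to 0.08, adjusted p = 0.633). SELENOK works with ZDHHC6, the enzyme that palmitoylates the IP3 receptor (gene Itpr1). Zdhhc6 had 2044 ± 284 scaled counts in selenite, 2110 ± 632 in β-CYP and 1886 ± 547 in control livers, and did not pass in any of the 3 comparisons. Itpr1 fell in selenite livers relative to β-CYP livers, to 2898 ± 145 against 3499 ± 68.7, a log2 change of -0.27 (adjusted p = 0.00211), but not with libraries scaled to equal totals (adjusted p = 0.125).

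Selenos, the p97-binding member, had 1935, 1673 and 1818 scaled counts in selenite livers, against 1357, 1361 and 1431 in β-CYP livers and 1627, 1569 and 1622 in control livers. It was lowest in the β-CYP group, whose libraries lay below all 6 others, and highest in the selenite group, with no overlap between groups. Selenite over β-CYP gave a log2 change of 0.38 (SE 0.056, interval 0.26 to 0.51), a fold of 1.31 (adjusted p = 7.4e-04). The fall in β-CYP relative to control was smaller, at -0.22 (interval -0.34 to -0.09, adjusted p = 0.0261). It missed the threshold without control replicate 1 or 3 (adjusted p = 0.0788 and 0.0765), without β-CYP replicate 1 or 2 (0.0822 and 0.081) and with equal totals (0.12). Selenite over control was 0.17 (interval 0.04 to 0.29, adjusted p = 0.0471), and 12 of 20 alternatives lost this call, with adjusted p between 0.0113 and 0.936 over the 20. The rises of Selenok and Selenos over β-CYP kept their call in all 20 alternatives, with adjusted p up to 0.00233 for Selenok and 0.00875 for Selenos.

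The 250 bases before the annotated start of these genes are shown because Selenok and Selenos rose together and ER stress elements are built from the letters CCAAT and CCACG. They are RefSeq sequence of build GRCm38.p6, given 5′ to 3′ on the gene's strand, with capitals for CCAAT and CCACG on either strand (ATTGG and CGTGG on the other). Selenos lies at chr7:66079399-66079648 on the plus strand and Selenok at chr14:29968130-29968379 on the plus strand.
Selenos: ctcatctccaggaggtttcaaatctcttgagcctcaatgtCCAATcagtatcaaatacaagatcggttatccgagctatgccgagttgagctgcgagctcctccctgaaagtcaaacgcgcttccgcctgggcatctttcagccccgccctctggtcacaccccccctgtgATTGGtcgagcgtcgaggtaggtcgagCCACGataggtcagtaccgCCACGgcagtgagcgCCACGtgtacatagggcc
Selenok: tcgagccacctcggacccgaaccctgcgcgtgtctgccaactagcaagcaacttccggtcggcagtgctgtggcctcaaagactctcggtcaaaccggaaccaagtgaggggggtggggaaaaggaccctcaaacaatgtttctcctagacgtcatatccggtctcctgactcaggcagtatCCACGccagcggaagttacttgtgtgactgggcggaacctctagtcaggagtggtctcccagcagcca
Selenos holds 3 copies of CCACG, 52, 33 and 18 bases before the start, and 2.13% of 32851 windows of this length hold 3 or more. The cut of 3 is the count of Selenos itself, so this share is a description. Selenos also holds 2 copies of CCAAT. Selenok holds 1 copy of CCACG, 68 bases before the start, and none of CCAAT. Of the members, 3 windows hold CCAAT (Selenof, Selenoi and Selenos) and 3 hold CCACG (Selenof, Selenos and Selenok). These letters were found in 33.8% and 28.3% of all windows. Both occur together in 9.26% of all windows and in 2 members, Selenos and Selenof, the member that fell with selenite. Selenon, which rose as well, holds neither. The full ER stress element ERSE (CCAAT, any 9 bases, CCACG), ERSE-II (ATTGG, any 1 base, CCACG) and the element UPRE (TGACGTGG), searched on both strands, were in 0.113%, 0.0304% and 0.563% of windows and in 0 of the 7 members' windows. The CCAAT and CCACG searches overlap with ERSE and ERSE-II, and the CCACG search also with UPRE, which holds CGTGG. These are matches of letters, and nothing about binding was measured.

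Genes of ER-associated degradation moved in both directions. Of 24 listed genes, 7 rose and 5 fell in selenite relative to β-CYP livers, with a median log2 change of 0.05. With libraries scaled to equal medians the split was 5 and 9, and with equal totals 9 and 0. Syvn1, the ubiquitin ligase HRD1, rose to 7511 ± 1251 in selenite livers, against 2221 ± 459 in β-CYP livers and 4420 ± 56.5 in control livers (log2 change over β-CYP 1.77, adjusted p = 2.5e-05). Among the Derlins, Derl1 rose to 3602 ± 195 in selenite, against 2913 ± 150 in β-CYP livers (0.31, adjusted p = 0.00171). Derl3 rose by 0.62 (adjusted p = 0.0162), while Derl2 had a change of 0.04 (adjusted p = 0.797). Vcp, the p97 ATPase, fell by 0.27 in selenite relative to β-CYP, to 7933 ± 142 against 9559 ± 326 (adjusted p = 2.1e-04), but it missed the threshold with quantile normalization (0.697) and equal totals (0.128). In β-CYP relative to control livers, 0 of the 24 genes rose and 8 fell, Derl3 by 1.51 on the log2 scale (adjusted p = 1.1e-04), Syvn1 by 1.01 (0.00156) and Derl2 by 0.42 (0.00622). Selenos fell in that comparison as well, and Selenok did not pass.

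The unfolded protein response list, whose chaperones and stress transducers adjust the folding capacity of the ER, passed the test in most of its genes. In selenite relative to β-CYP livers 16 of 19 genes rose and 2 fell, with a median log2 change of 0.77, and in β-CYP relative to control livers 2 rose and 12 fell, with a median of -0.38. With equal medians the first split was 11 and 2, and the second was 2 and 12 under each of 4 other scalings. Creld2, an ER chaperone of the stress response, had 6079 ± 221 in selenite, 1333 ± 84.2 in β-CYP and 3610 ± 73.5 in control livers, a rise of 2.19 over β-CYP (adjusted p = 2.5e-09). Hspa5, the chaperone BiP, had 37430 ± 6352 in selenite, 16890 ± 2606 in β-CYP and 31540 ± 638 in control livers, a rise of 1.15 over β-CYP (adjusted p = 1.7e-04). Dnajb9 rose by 1.25, Hyou1 by 1.48 and the kinase gene Eif2ak3 (PERK) by 0.97 in the same comparison, with adjusted p of 5.5e-08, 3.1e-09 and 1.9e-06. In this comparison all 19 tested pancreatic acinar markers rose as well, and acinar cells are rich in ER chaperones. The part of acinar transcripts in the changes of this and the other ER lists was not tested. Selenos shared the order of Creld2 and Hyou1, lowest in β-CYP, intermediate in control and highest in selenite livers, with smaller differences.

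**Figure D2:**
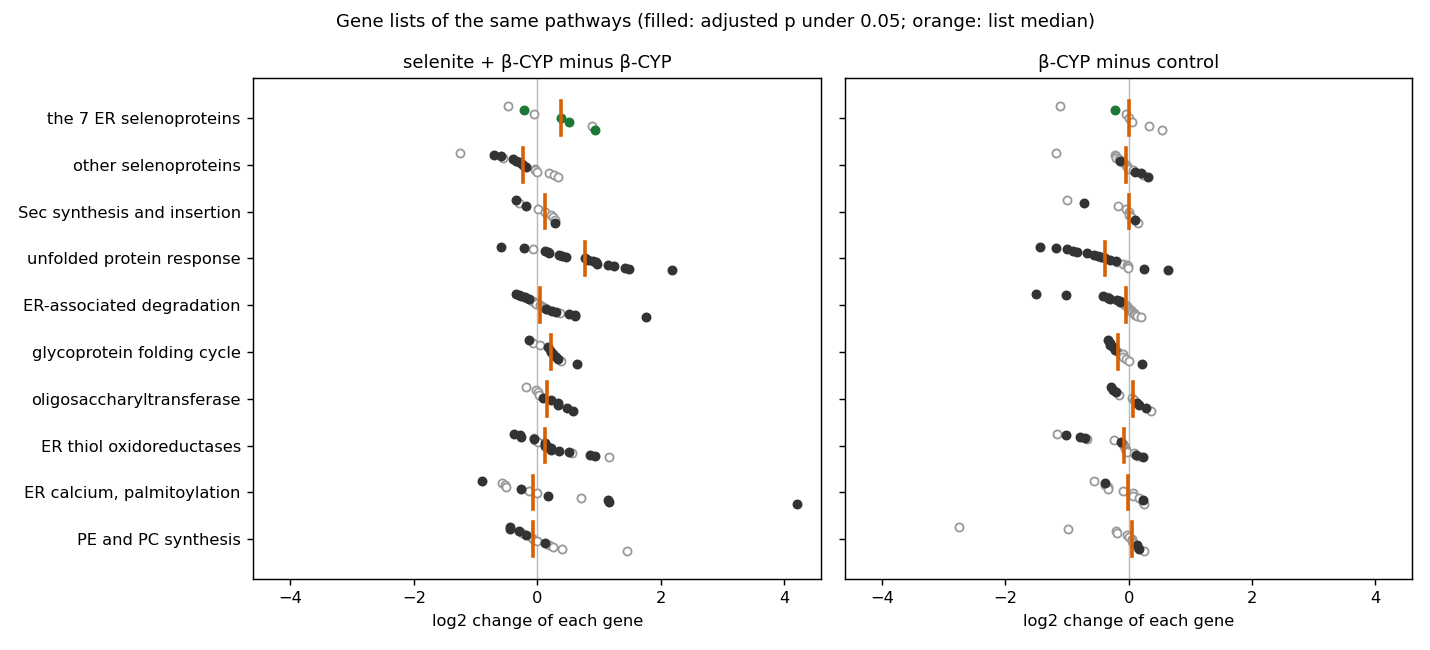
Log2 change of each gene (x axis) in the 7 ER selenoproteins and 9 gene lists (y axis), for selenite + β-CYP minus β-CYP (left) and β-CYP minus control (right); filled points have an adjusted p under 0.05, colour sets the members apart and the orange bar is the list median. The unfolded protein response list has medians of 0.77 and -0.38, and other selenoproteins have medians of -0.22 and -0.04. All 4 other scalings kept the signs of these 4 medians.

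Selenon, the calcium-handling member, was detected at low counts. It had 165.7, 185.4 and 153.3 scaled counts in selenite livers, against 103.0, 75.56 and 84.11 in β-CYP livers and 63.74, 79.52 and 64.0 in control livers. All selenite libraries were above all others, and β-CYP and control libraries overlapped. Selenite over β-CYP gave a log2 change of 0.94 (SE 0.17, interval 0.57 to 1.31), a fold of 1.92 (adjusted p = 0.00241), the largest rise among the members that passed. Selenite over control gave 1.27 (interval 0.90 to 1.65), a fold of 2.42 (adjusted p = 2.8e-04). β-CYP over control gave 0.33 (interval -0.04 to 0.70, adjusted p = 0.23). Both rises kept their call in all 20 alternatives. Its reads numbered 56 to 201 per library, and the SD within a group came to 9.62% to 16.0% of the mean, against 7.45% to 12.3% from counting alone.

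Muscle transcripts, like Selenon, were highest in the selenite libraries. Summed over 8 skeletal muscle markers, selenite libraries had 734 to 792 reads, β-CYP libraries 13 to 24 and control libraries 12 to 27. All 6 tested markers rose in both selenite comparisons, and Ckm, Myh4, Tnnt3, Actn3 and Pvalb were at 0 in all β-CYP and control libraries, whereas Ckm had 148, 148 and 92 reads in selenite libraries. Ryr1, the ryanodine receptor of muscle and a partner of Selenon in zebrafish, had 32, 30 and 55 reads in selenite libraries, against 0, 0 and 7 in β-CYP libraries and 3, 5 and 0 in control libraries. Selenon was present in every library, with 74 to 99 reads in β-CYP and 56 to 79 in control libraries, where most of the muscle markers were at 0. Stellate cell markers (9 genes) were also highest in selenite, summing to 10854 to 11648 reads, against 9198 to 10843 in β-CYP and 7820 to 8758 in control libraries. Of these, 7 rose and 0 fell in selenite relative to control, and 4 rose and 1 fell relative to β-CYP. The part of these muscle and stellate cell transcripts, and of the acinar transcripts given above, in the changes of Selenon and the other members was not tested. Atp2a2, the calcium pump SERCA2 that SELENON binds, had 6581 ± 213 scaled counts in selenite, 5806 ± 151 in β-CYP and 7595 ± 108 in control livers, falling by 0.39 in β-CYP relative to control (adjusted p = 2.6e-05) and rising by 0.18 in selenite over β-CYP (adjusted p = 0.00274). The second call was lost with equal medians (adjusted p = 0.335). Over the 12 genes of ER calcium handling and palmitoylation, 4 rose and 2 fell in selenite relative to β-CYP livers, with a median of -0.07 that had the opposite sign with equal totals (0.06). With equal medians 2 rose and 5 fell, and with equal totals 5 rose and 1 fell. Of these 12 genes, 1 rose and 1 fell in β-CYP relative to control.

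**Figure D3:**
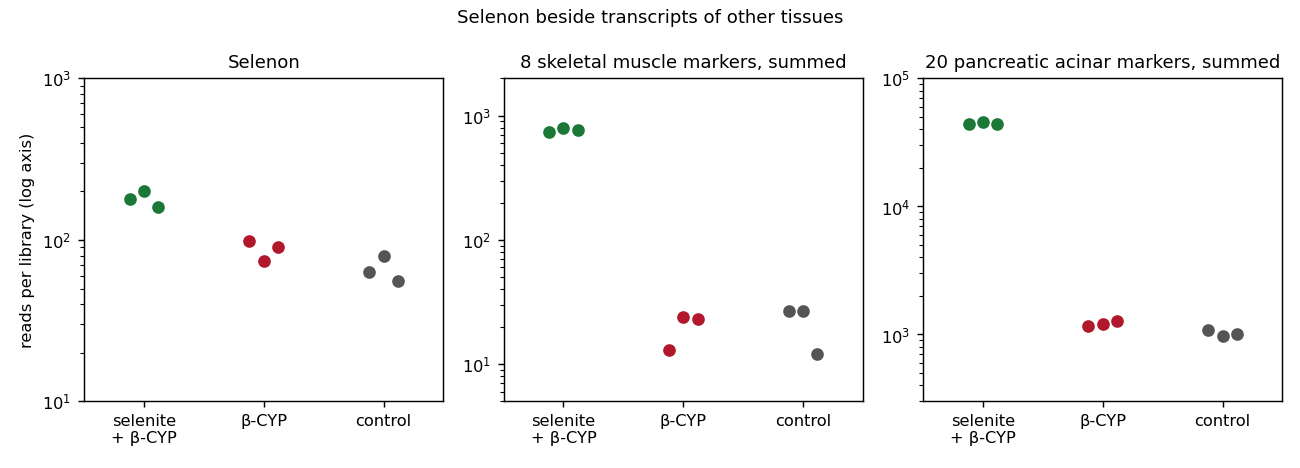
Reads per library (y axes, logarithmic, each panel with its own range) of Selenon, of 8 skeletal muscle markers summed and of 20 pancreatic acinar markers summed, in selenite + β-CYP, β-CYP and control livers (x axis); each point is 1 library. Selenon reads are 160 to 201, 74 to 99 and 56 to 79 in the 3 groups in that order, and both marker sums are highest in the selenite libraries.

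Selenof, the UGGT-binding glycoprotein folding factor, was the one member that fell with selenite. It had 4078, 3963 and 3736 scaled counts in selenite livers, against 4504, 4542 and 4643 in β-CYP livers and 4648, 4351 and 4565 in control livers. All selenite libraries lay below all others, and β-CYP and control libraries overlapped. The fall in selenite relative to β-CYP was small, at -0.22 (SE 0.040, interval -0.31 to -0.13), a fold of 0.86 (adjusted p = 0.00324), and relative to control it was -0.20 (interval -0.29 to -0.11, adjusted p = 0.00376). β-CYP over control gave 0.01 (interval -0.08 to 0.10, adjusted p = 0.883). Both falls missed the threshold with equal totals (-0.09, adjusted p = 0.411, and -0.07, 0.522) and with quantile normalization (-0.12, 0.0719, and -0.09, 0.149). Equal totals put the median of all genes at 0.14 in selenite over β-CYP and at 0.16 in selenite over control. Relative to the median of all genes under the same scaling, Selenof stood at -0.23 and -0.22 with equal totals and at -0.11 and -0.09 with quantile normalization. Hepatocyte markers moved the same way: 0 of 7 rose and 7 fell in selenite relative to β-CYP livers (3 fell with quantile normalization and 4 with equal totals), and 1 rose and 5 fell relative to control (2 fell with quantile normalization and 3 with equal totals). Their part in the fall of Selenof was not tested.

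The enzymes that SELENOF works beside had other values. Uggt1, its partner glucosyltransferase, had 4206 ± 158 scaled counts in selenite, 3396 ± 55.2 in β-CYP and 4281 ± 87.3 in control livers. It rose by 0.31 in selenite over β-CYP (adjusted p = 1.7e-04) and fell by 0.33 in β-CYP relative to control (adjusted p = 1.5e-04). Mogs, the glucosidase that trims the first glucose from N-glycans, rose by 0.65 over β-CYP (adjusted p = 1.2e-05), and Lman1, a cargo receptor, by 0.34 (adjusted p = 2.5e-04). Of 11 genes of the glycoprotein folding cycle, 6 rose and 1 fell in selenite relative to β-CYP livers, with a median log2 change of 0.22, and 1 rose and 5 fell in β-CYP relative to control livers, with a median of -0.17. The signs of both medians were the same under the 4 other scalings.

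Selenot, a thioredoxin-like member tied to the oligosaccharyltransferase that attaches N-glycans, passed in none of the 3 comparisons. It had 4521, 4200 and 4362 scaled counts in selenite livers, against 4417, 4611 and 4600 in β-CYP livers and 4462, 4386 and 4196 in control livers. The 3 groups overlapped. Its log2 changes were -0.06 in selenite over β-CYP (interval -0.15 to 0.03, adjusted p = 0.326), 0.00 in selenite over control (interval -0.08 to 0.09, adjusted p = 0.954) and 0.06 in β-CYP over control (interval -0.02 to 0.15, adjusted p = 0.331). With equal medians it fell in selenite relative to both other groups (adjusted p = 0.00368 and 0.00875), and with equal totals its change over β-CYP was positive. Of 10 oligosaccharyltransferase genes, 6 rose and 0 fell in selenite relative to β-CYP livers, with a median of 0.16, and with equal medians 3 rose and 2 fell. The catalytic subunit gene Stt3a rose to 4501 ± 115 in selenite, against 3196 ± 177 in β-CYP livers (0.49, adjusted p = 2.2e-05), and Ostc by 0.58 (adjusted p = 1.8e-05). Between β-CYP and control livers 3 rose and 3 fell.

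Selenom, whose product is a soluble thioredoxin-like protein, was at 24 to 50 reads per library. It had 22.1, 31.36 and 38.33 scaled counts in selenite livers, against 36.4, 42.88 and 46.22 in β-CYP livers and 27.32, 29.19 and 28.57 in control livers. β-CYP libraries were above all control libraries, and the selenite libraries overlapped with both groups. The changes were 0.54 in β-CYP over control (interval -0.02 to 1.10, adjusted p = 0.198) and -0.47 in selenite over β-CYP (interval -1.03 to 0.10, adjusted p = 0.229). Selenite over control gave 0.07 (interval -0.49 to 0.63, adjusted p = 0.869). At this depth counting alone gives a coefficient of variation of 15.4% to 19.2%, so a change of the size seen in Selenos was not detectable. Among 19 ER thiol oxidoreductases, which form and break disulfide bonds as the thioredoxin-like members may do, 9 rose and 4 fell in selenite relative to β-CYP livers. Their median was 0.13, and with equal medians 3 rose and 4 fell. Pdia4 rose by 0.94 (adjusted p = 4.3e-09), to 11470 ± 147 in selenite against 5976 ± 123 in β-CYP livers, and Ero1lb, an oxidase that feeds disulfides to protein disulfide isomerases, by 0.52 (adjusted p = 2.9e-05). Relative to control, β-CYP livers had 2 higher and 4 lower, Ero1lb lower by 1.01 on the log2 scale (adjusted p = 4.2e-07).

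Selenoi, the ethanolamine phosphotransferase, varied widely within the β-CYP and control groups. It had 1003, 1130 and 934.3 scaled counts in selenite livers, against 281.9, 792.3 and 741.3 in β-CYP livers and 1476, 1196 and 953.2 in control livers. The β-CYP libraries were below all others, and 1 of them, replicate 1, lay far below the other 2. Its coefficient of variation was 46.5% in β-CYP and 21.7% in control livers, against 4.03% and 2.94% from counting alone. In β-CYP relative to control the log2 change was -1.11 (SE 0.34, interval -1.88 to -0.34, adjusted p = 0.056), which missed the threshold. It passed without β-CYP replicate 1 (-0.63, adjusted p = 0.0377) and without β-CYP replicate 2 (-1.38, adjusted p = 0.037). It also passed with equal medians (0.0467), with a minimum mean of 10 (0.0467) and with voom on the recovered reads (0.0385). The adjusted p over 20 alternatives was 0.037 to 0.179. Selenite over β-CYP gave 0.89 (interval 0.12 to 1.66, adjusted p = 0.0958), and without β-CYP replicate 1 it gave 0.41 (adjusted p = 0.127). Selenite over control gave -0.22 (interval -0.99 to 0.55, adjusted p = 0.684).

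Other enzymes of phosphatidylethanolamine and phosphatidylcholine synthesis were examined beside Selenoi. Of 13 genes, 1 rose and 4 fell in selenite relative to β-CYP livers, with a median of -0.07, and 2 rose and 0 fell in β-CYP relative to control livers. Under equal totals and quantile normalization the first median was positive, at 0.06 and 0.03. Pcyt2, which makes the CDP-ethanolamine that SELENOI uses, had 7823 ± 157 scaled counts in selenite, 8865 ± 269 in β-CYP and 8493 ± 138 in control livers. Its change of -0.18 relative to β-CYP (adjusted p = 0.00168) was lost with equal totals (0.544) and quantile normalization (0.522). Cept1, an enzyme with the same activity as SELENOI in its range, had 951.1 ± 29.9 in selenite, 1025 ± 166 in β-CYP and 923.0 ± 54.0 in control livers and did not pass in any comparison. Pemt, which methylates phosphatidylethanolamine to phosphatidylcholine, fell by 0.30 (adjusted p = 1.5e-04) and Chpt1, a cholinephosphotransferase, by 0.44 (adjusted p = 7.4e-05) in selenite relative to β-CYP livers.

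**Figure D4:**
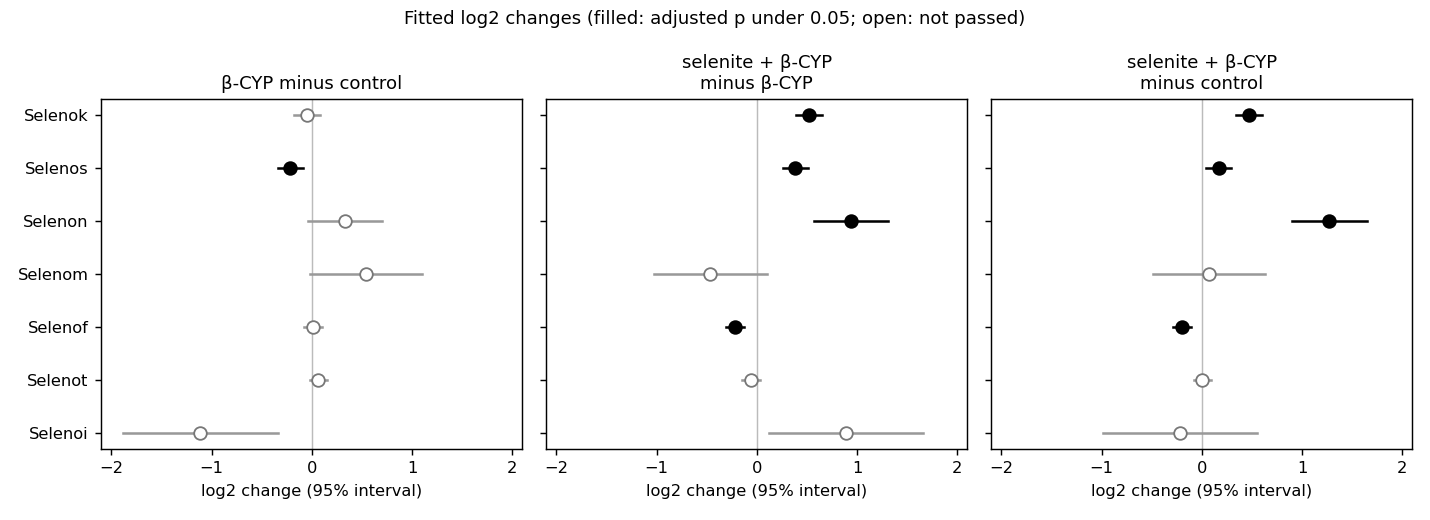
Fitted log2 change (x axis, with its 95% interval) of each ER selenoprotein (y axis) in β-CYP minus control, selenite + β-CYP minus β-CYP and selenite + β-CYP minus control; filled points have an adjusted p under 0.05. Selenok, Selenos and Selenon are filled to the right of 0 in both selenite panels and Selenof to the left, Selenos is filled to the left in the first panel, and the intervals of Selenom and Selenoi are the widest. The calls of Selenof in both selenite panels, and of Selenos against control, are lost in some alternative scalings.

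The other selenoproteins gave another count. Of 16 such genes in the table, 0 rose and 8 fell in selenite relative to β-CYP livers, with a median log2 change of -0.22. Under 4 other scalings the rises numbered 0 to 1 and the falls 4 to 9. Msrb1, a methionine sulfoxide reductase, had 7339 ± 57.4 scaled counts in selenite, 11910 ± 278 in β-CYP and 9575 ± 168 in control livers, a fall of 0.70 relative to β-CYP (adjusted p = 5.1e-08). Selenow had 1496 ± 20.2 in selenite, 2256 ± 23.5 in β-CYP and 2406 ± 58.0 in control livers, a fall of 0.59 relative to β-CYP (adjusted p = 1.4e-06). The deiodinase gene Dio1 fell by 0.30 (adjusted p = 1.6e-04) and missed the threshold with equal totals (0.0538). In selenite relative to control 1 rose and 8 fell, with a median of -0.31, and in β-CYP relative to control 3 rose and 1 fell, with a median of -0.04. Whether the ER members as a list differ from these 16 genes was not tested.

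Transcripts for making and inserting selenocysteine moved in both directions. Of 9 genes, 1 rose and 2 fell in selenite relative to β-CYP livers, and 2 rose and 4 fell in selenite relative to control livers. With equal totals the second split was 3 and 0. Sephs2, which makes selenophosphate and is itself a selenoprotein counted in both lists, fell to 17960 ± 405 against 22910 ± 100 (log2 change -0.35, adjusted p = 1.6e-06). Secisbp2l, a relative of the SECIS-binding protein gene, rose by 0.28 (adjusted p = 0.00137). Secisbp2 had 537.7 ± 22.2 in selenite, 453.4 ± 21.7 in β-CYP and 453.4 ± 65.9 in control livers and did not pass in any comparison, although it rose in both selenite comparisons with equal totals (adjusted p = 0.0258 and 0.0165). Eefsec had 602.5 ± 85.1 in selenite, 733.6 ± 56.7 in β-CYP and 841.6 ± 155 in control livers. It passed only in selenite relative to control (-0.47, adjusted p = 0.0368), and not there with equal totals (0.108). Relative to control, 1 gene of this list rose in β-CYP livers and 1 fell, Pstk, the kinase that prepares the serine tRNA for selenium, by 0.72 (adjusted p = 0.0101).

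The genes most like each changed member over the 9 libraries were sought among 10520 genes with a mean of at least 100 scaled counts, by the root mean square difference of log2 values centred on each gene's mean. For Selenok these were Hapln4 (0.0397), Cd9 (0.0516) and the coatomer subunit gene Copb2 (0.0518). For Selenos they were Gemin5 (0.0423), Gnpnat1 (0.0494) and the N-glycan branching enzyme gene Mgat2 (0.0509). Selenof lay nearest to the heme transporter gene Slc48a1 (0.0232), Tmem259 (0.0275) and Lasp1 (0.0297). Selenon had no neighbour as close, the nearest being Gramd4 (0.117), Gm7292 (0.148) and the carotene oxygenase gene Bco1 (0.15). It also had fewer reads than Selenok, Selenos and Selenof, at 56 to 201 per library. Counting alone gives Selenon a coefficient of variation of 7.45% to 12.3%, and the part of counting in its distances was not tested. Copb2 had 7022 scaled counts in selenite, 4597 in β-CYP and 4886 in control livers, and Mgat2 had 1846, 1430 and 1618 in the same order of groups. These genes were chosen for their pattern, so their levels are a description.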

How the data were processed

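Expression was deposited by the authors as log2 values in a single table, with a column for each of the 9 libraries. The submitters' processing notes name HISAT, Cufflinks and build mm9, with no versions or roles. Which counting tool, annotation and strand setting applied was not given in the sources used here. Per the labels' protocols, RNA was extracted with Trizol and a TruSeq kit was used for the libraries; the series' text names an Illumina HiSeq instrument and the library protocol a BGISEQ one. The deposited log2 values equal log2(reads / library factor + 1): undoing this gave whole reads, within 0.02, for 100% of values in each library.

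limma 3.58.1 in R 4.3.3 was fitted to log2(scaled count + 1) over 9 libraries with 3 group means and an intensity trend, for the 20145 genes whose scaled count averaged 1 or more. The authors' values are thus tested on a log scale, which understates changes of genes with few reads. P-values are two-sided, adjusted by Benjamini-Hochberg over all genes tested, with a threshold of 0.05. The fit was tested on simulated data. The 20 alternatives were 4 scalings, pseudocounts of 0.1 and 10, no filter, a minimum of 10, a replicate block, 6-library fits, voom on recovered reads, and 9 fits without 1 library each. The members and gene lists were chosen with earlier results of these data known. Named genes were the members, the 2 largest passing changes per list and comparison, 13 genes set with the lists, and the 3 nearest genes per changed member; the text gives examples.

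Lengths and selenocysteine codons came from GENCODE M21 (GRCm38), and promoter windows from RefSeq (GRCm38.p6), both of another build than mm9, so they serve only for sequence and length. All 7 members matched both. No annotated gene overlaps their exons in GRCm38. That annotation names 6 pseudogenes after Selenok or Selenot, and if reads were shared with these, both genes' values are uncertain.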

Additional observations from a re-analysis of the deposited data

How the results depend on the processing

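The rises of Selenok, Selenos and Selenon in selenite over β-CYP, and of Selenok and Selenon over control, kept their direction and call in all 20 alternatives. In β-CYP relative to control 1 member was called, Selenos. The number was 2 with equal medians, with a minimum mean of 10 and with voom. It was 0 with equal totals, and 0 to 1 when 1 library was left out. Without β-CYP replicate 1 or 2 the member called was Selenoi (adjusted p = 0.0377 and 0.037), and Selenos missed the threshold (0.0822 and 0.081). Values near 0 changed sign. Selenof in β-CYP over control was -0.017 with equal medians and -0.014 to 0.034 without 1 library. Selenot in selenite over β-CYP was 0.037 with quantile normalization and 0.067 with equal totals; in selenite over control it was -0.16 with equal medians, -0.003 with trimmed mean scaling and, without 1 library, -0.022 to 0.031. Selenom in selenite over control was -0.077 with quantile normalization, -0.089 with equal medians and -0.1 to 0.28 without 1 library. Scaling sets the balance of calls over all genes. Selenite over β-CYP gave 2337 higher and 2468 lower, against 1532 and 3853 with equal medians and 3238 and 1334 with equal totals. Selenite over control gave 2908 and 2915, against 1819 and 4550, and 3979 and 1764. β-CYP over control gave 1556 and 1729, against 1334 and 1981 with equal medians. Equal medians put the median of all genes at -0.11 and -0.13 in the 2 selenite comparisons, and equal totals at 0.14 and 0.16. The cause of these changes was not tested.

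Same-numbered libraries did not deviate together (correlations of -0.11 to 0.094), so the numbers were not taken to pair the samples. With replicate number as a block, 1, 4 and 4 members and 2956, 4481 and 5506 genes were called in β-CYP over control, selenite over β-CYP and selenite over control, against 1, 4 and 4 members and 3285, 4805 and 5823 genes without it. Depth limits Selenom most, with 24 to 50 reads per library. Reads are not independent molecules, so counting errors cover counting only. The labels record no batch.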

Other observations

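Selenite livers were also set against control livers for the gene lists. Of 19 unfolded protein response genes, 12 rose and 3 fell, with a median log2 change of 0.31, and the median was positive under each of 4 other scalings. Creld2 rose by 0.75 (adjusted p = 2.6e-06), Dnajb9 by 1.04 (1.6e-07) and Eif2ak3 by 0.96 (1.6e-06), while Hspa5 had a change of 0.23 (adjusted p = 0.237) that passed with quantile normalization (0.00494). Of 10 oligosaccharyltransferase genes, 6 rose and 0 fell, with a median of 0.22, and with equal medians 3 rose and 1 fell. The subunit gene Rpn1 rose by 0.39 (adjusted p = 6.0e-06).

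In the same comparison 6 of 24 genes of ER-associated degradation rose and 10 fell, and with equal totals 7 rose and 1 fell. Derl1 rose by 0.41 (adjusted p = 2.0e-04), Syvn1 rose by 0.75 (0.00528), Derl2 fell by 0.38 (0.00624) and Derl3 fell by 0.89 (0.00176). The fall of Derl2 was lost with equal totals (adjusted p = 0.117). The glycoprotein folding cycle had 1 higher and 1 lower of 11 genes, ER thiol oxidoreductases 5 and 4 of 19, and ER calcium handling 2 and 3 of 12. Phosphatidylethanolamine and phosphatidylcholine synthesis had 1 higher and 4 lower of 13 genes, and selenocysteine synthesis and insertion 2 and 4 of 9. With equal medians or equal totals these splits were 1 and 7 or 4 and 0, 1 and 9 or 8 and 3, 1 and 4 or 2 and 2, 1 and 6 or 1 and 1, and 0 and 4 or 3 and 0, in the order just given.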
